A study of Mus musculus with 2 samples.

Results

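Itga2b and Itgb3 encode the chains of the platelet fibrinogen receptor, and the surface proteins CD41 and CD61 are their products. Both RNAs and both antibody tags were followed cell by cell in bone marrow LSK cells (negative for lineage markers, positive for Sca-1 and c-Kit) of aged mice by CITE-seq, which counts RNA and barcoded antibodies in the same cell. The 4 features were picked by name and are 2 of 32285 genes and 2 of 117 surface tags other than isotype controls. They were chosen with expression and tag values of these cells already known, so what follows is description, with no test. No threshold on a measured value entered the choice.

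The chelator pool came from mice dosed with deferoxamine (50 mg/kg), which binds iron, and the control pool from mice given the vehicle HBSS. Dosing in both was daily for 7 days, repeated every 4 weeks over 13 months, and began at an age of about 6 months. Each condition was 1 pool with a hashtag antibody of its own, and the pools were mixed before loading. Neither the strain nor the number of mice per pool is given in the sources used here. With 1 pool per condition there was no replicate, and all intervals (95%) cover counting error only, not the spread between mice.

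After filtering, 3998 chelator and 3969 control cells remained, with medians of 14455.5 and 13705 RNA molecules (UMIs, unique molecular identifiers) and 3437.5 and 3028 surface-tag UMIs per cell. No barcode occurred in both pools. Xist alone marked 897 chelator and 1417 control cells, and Y-linked transcripts alone 2542 and 1952, so the pools differed in sex make-up. Both kinds of transcript together occurred in 52 and 35 cells.

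Integrins are pairs of an alpha and a beta chain. The alpha chain CD41 pairs with CD61 alone, whereas CD61 also pairs with CD51, the product of Itgav, to form the vitronectin receptor. The CD41 and CD61 pair binds fibrinogen and von Willebrand factor and lets platelets aggregate, and it appears early on cells of the megakaryocyte lineage. In mouse marrow, CD41 has also been used to mark stem cells with a myeloid or platelet bias, which become more frequent with age, and CD61 has been described on aged stem cells.

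Both genes lie on chromosome 11 in GRCm38.p6 and code for protein. Itga2b (ENSMUSG00000034664) spans 102453297 to 102469883, and Itgb3 (ENSMUSG00000020689) spans 104608000 to 104670476. The 250 bases upstream of the Itga2b start (chr11:102469884-102470133, minus strand, GRCm38.p6, from RefSeq) are shown because Itga2b RNA went with that of other megakaryocyte genes in these cells. The capitals mark the letters GGAAG or their reverse complement CTTCC, the core that ETS factors such as Fli1 are known to bind.
Itga2b promoter: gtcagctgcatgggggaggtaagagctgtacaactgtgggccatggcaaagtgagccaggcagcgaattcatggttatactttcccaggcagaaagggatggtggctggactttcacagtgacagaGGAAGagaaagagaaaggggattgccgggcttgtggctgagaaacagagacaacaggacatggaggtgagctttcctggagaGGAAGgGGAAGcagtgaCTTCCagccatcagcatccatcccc
GGAAG occurred 3 times and CTTCC 1 time, beginning at positions -124, -42, -36 and -25 from the start, and 64.1% of 32851 promoter windows held either. Other motifs were searched on both strands and were not in this window: of the GATA factors AGATAA (held by 9.99% of all windows), then TGATAA (7.94%), then AGATAG (7.71%), then TGATAG (6.35%), of the Runx factors TGTGGT (14.0%), and of the Sp factors GGGCGG (32.7%). A match of letters is no evidence of binding.

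Cells were gated by 3 surface tags that are not among the members. CD135, the receptor encoded by Flt3, marks lymphoid-leaning progenitors, CD48 marks progenitors that have left the stem cell state, and CD150, encoded by Slamf1, marks stem cells. The HSC (haematopoietic stem cell) gate was negative for CD135 and CD48 and positive for CD150, and held 1311 chelator and 1162 control cells. The multipotent progenitor gates were MPP1 (negative for all, 566 and 549 cells), MPP2 (CD48 and CD150 positive, 101 and 92), MPP3 (CD48 positive alone, 614 and 503) and MPP4 (CD135 positive, CD150 negative, 1286 and 1508). A further 120 chelator and 155 control cells were positive for both CD135 and CD150.

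RNA followed these gates. Slamf1 stood at 58.5 and 58.3 CPM (UMIs per 1000000 gene UMIs) in the chelator and control HSC gates, against 1.03 and 0.911 in the MPP4 gates. Flt3 stood at 8.87 and 7.03 CPM in the HSC gates, against 275 and 280 in the MPP4 gates. Cd48 stood at 2.17 and 2.61 CPM in the HSC gates, against 136 and 139 in the MPP3 gates.

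Itga2b RNA was highest in the MPP2 gate, where it reached 159 CPM (143 to 176) in the chelator pool and 181 (164 to 200) in the control pool. The HSC gate held 90.1 CPM (85.9 to 94.4) in the chelator pool and 82.9 (78.5 to 87.4) in the control pool. CD135+CD150+ cells held 92.0 (78.6 to 107) and 116 (103 to 131) CPM, which overlapped the HSC gate in the chelator pool and lay above it in the control pool. The MPP3 gate followed with 44.1 and 64.9 CPM, the MPP1 gate with 39.8 and 37.7, and the MPP4 gate was lowest with 19.3 and 20.2. MPP3 and MPP1 overlapped in the chelator pool but not in the control pool.

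Itgb3 RNA had another order, led by the HSC gate. It stood there at 73.3 CPM (69.5 to 77.2) in the chelator pool and 75.5 (71.4 to 79.8) in the control pool. CD135+CD150+ cells, with 49.3 and 38.2 CPM, and the MPP2 gate, with 40.5 and 44.4, overlapped each other. The MPP1 gate held 16.2 and 14.3 CPM, whereas the MPP3 gate held only 3.98 and 7.78 and the MPP4 gate 3.27 and 4.04. MPP3 over MPP4, Itgb3 had a log2 ratio of 0.28 (-0.27 to 0.82) in the chelator pool, an interval that held 0. In the control pool it had 0.94 (0.50 to 1.39). Itga2b had 1.19 and 1.69, so it stood above its MPP4 level in both pools.

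Both tags were highest in the HSC gate. CD41 gave 199 UMIs per 10000 surface-tag UMIs in the chelator pool and 154 in the control pool. The MPP2 gate, highest for Itga2b RNA, held 118 and 143 CD41 UMIs per 10000, below the HSC gate in both pools. CD135+CD150+ cells held 147 and 112, the MPP1 gate 64.8 and 59.6, the MPP3 gate 39.3 and 43.9 and the MPP4 gate 32.3 and 32.8. RNA and surface order of the alpha chain therefore crossed between the MPP2 and HSC gates.

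CD61 gave 223 UMIs per 10000 in the HSC gate of the chelator pool and 193 in that of the control pool. CD135+CD150+ cells held 179 and 122. In the MPP2 gate it was 97.4 and 90.0, and in the MPP1 gate 95.7 and 97.8. These gates overlapped in the chelator pool, and MPP2 was the lower in the control pool. The MPP3 gate, with 29.1 and 31.5, and the MPP4 gate, with 30.6 and 31.5, formed the floor. The 9 isotype control tags, antibodies with no target in mouse cells, lay between 1.46 and 7.02 per 10000 over all LSK cells of either pool, so even the lowest gates stood above them.

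**Figure D1:**
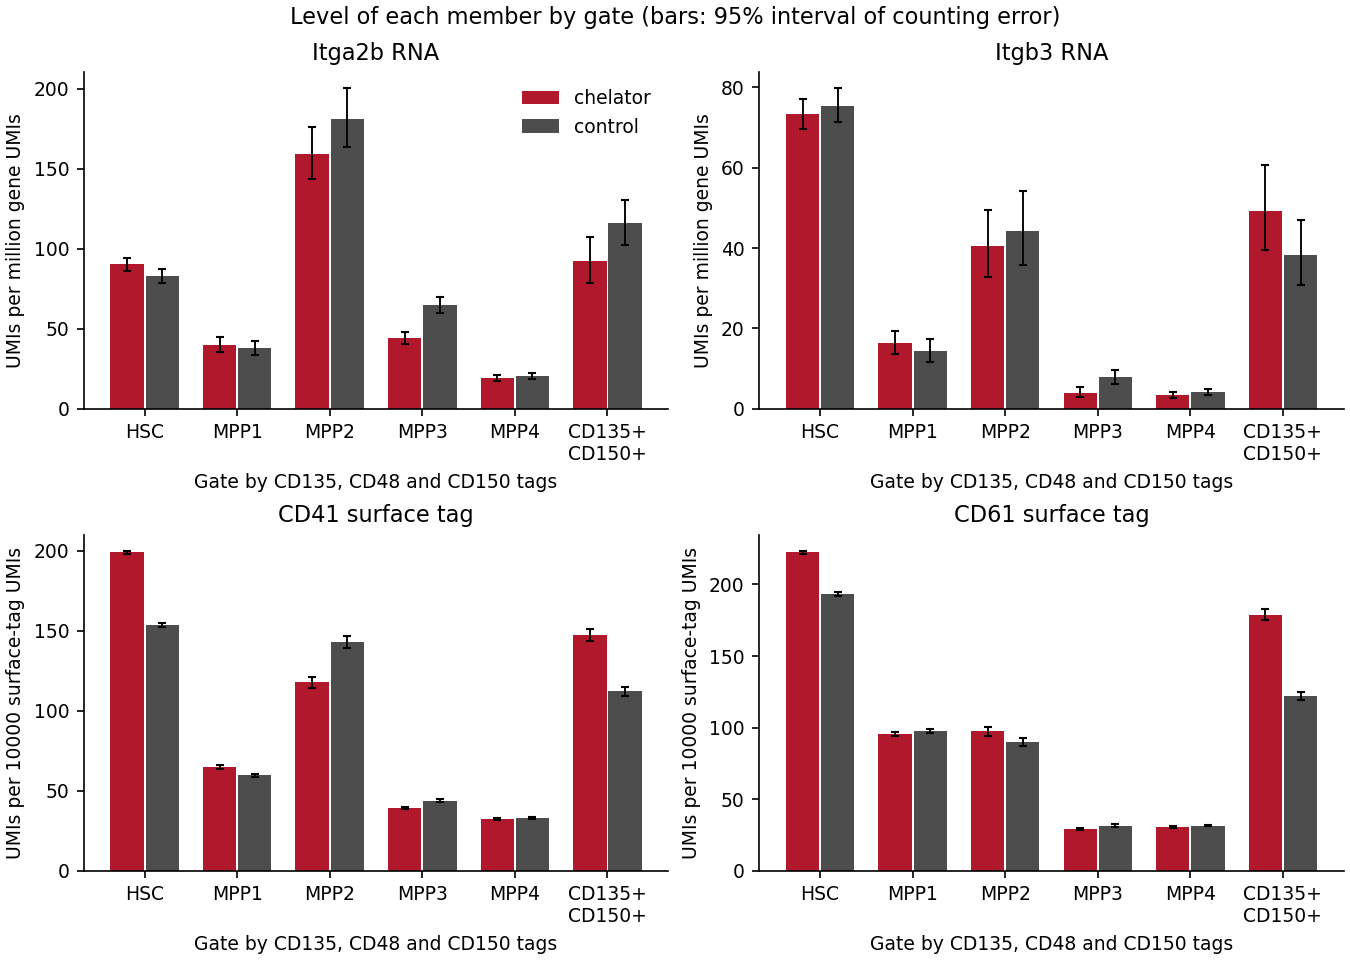
Level of Itga2b and Itgb3 RNA (CPM) and of the CD41 and CD61 tags (UMIs per 10000 surface-tag UMIs) in each gate, chelator bars left of control bars, with 95% intervals of counting error. Itga2b RNA peaks in the MPP2 gate, at 159 CPM in the chelator pool and 181 CPM in the control pool, whereas the other 3 features peak in the HSC gate.

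HSC over MPP4, log2 ratios were 2.22 (chelator) and 2.04 (control) for Itga2b, 4.49 and 4.22 for Itgb3, 2.62 and 2.23 for CD41, and 2.86 and 2.62 for CD61. All 4 features passed 2-fold in both pools. Without cells that held at least 2 UMIs of Pf4, platelet factor 4, and 1 of Gata1, Itga2b had 1.74 and 1.35, and in Xist cells alone it had 1.56 in the chelator pool. Itgb3 had 4.88 in Y cells alone of the control pool. Of all genes tested, 12.4% in the chelator pool and 11.4% in the control pool were more than 2-fold higher, and 6.99% and 6.37% more than 2-fold lower. Of the surface tags, 6.84% and 5.98% were higher and 12% and 12% lower by that measure. CD61 ranked 2 and CD41 ranked 3 of 117 tags in both pools, behind CD150, which had set the gate. Itgb3 ranked 165 of 12952 genes in the chelator pool and 168 of 12912 in the control pool, and Itga2b 657 and 640.

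In the tags, cells just either side of a gate limit differed less than the gates did. At the CD150 limit Itga2b RNA ran against the gate order, over 53 to 80 cells a side and without intervals. Among cells negative for CD135 and CD48 and within 0.25 natural-log units of the CD150 limit, CD61 stood at 159 just above it and 154 just below it in the chelator pool, and at 159 and 155 in the control pool. CD41 stood at 122 just above and 118 just below in the chelator pool, and at 108 and 89.5 in the control pool. At the CD48 limit, CD41 stood at 118 just above and 185 just below in the chelator pool, and at 121 and 129 in the control pool, over 20 to 35 cells each. Itga2b RNA stood at 88.3 CPM just above and 107 just below the CD150 limit in the chelator pool, and at 61.5 and 81.9 CPM in the control pool. At the CD48 limit it stood at 106 CPM just above and 191 just below in the chelator pool, where the MPP2 gate as a whole lay above the HSC gate. In the control pool it stood at 140.7 CPM just above and 125.4 just below the CD48 limit, which followed the gate order. These values came from 20 and 24 chelator cells and from 24 and 35 control cells.

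Single cells varied far more than the counting intervals. In the HSC gate, CD41 gave a median of 79 UMIs per cell in the chelator pool, with 20 at the 5th and 259.5 at the 95th percentile. The control pool had a median of 56, with 14 and 168.8 at these percentiles. CD61 gave medians of 106 and 84 there, against 5 in both MPP4 gates. The RNA was sparse in the same HSC-gate cells: Itga2b was seen in 42.1% of chelator cells (39.4 to 44.8, Clopper-Pearson) and 36.2% of control cells (33.5 to 39.1), and Itgb3 in 56.4% and 53.0%.

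Free RNA in the droplets gives some UMIs to cells that do not express a gene. In MPP4-gate cells with at least 3 UMIs of Dntt, the lymphoid terminal transferase, Itga2b was seen in 7.53% of chelator and 7.13% of control cells and Itgb3 in 4.18% and 3.67%. These cells were deeper, with medians of 20761 and 18184 gene UMIs, against 13312 and 12690 in the HSC gate. At 5000 UMIs per cell, Itga2b was seen in 22.6% and 19.1% of HSC-gate cells and in 1.47% and 1.86% of the Dntt cells. Itgb3 was seen at that depth in 30.0% and 29.7% of HSC-gate cells and in 0.84% and 1.45% of the Dntt cells.

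Over all LSK cells, each RNA climbed with its own tag. Cells were ranked by the tag's centred log ratio and split into quintiles. In the chelator pool Itga2b stood at 11.1, 22.4, 46.8, 58.6 and 138 CPM from the lowest to the highest CD41 quintile. In the control pool the series was 10.9, 20.9, 45.3, 69.2 and 132 CPM. Highest over lowest, the log2 ratio was 3.64 (3.40 to 3.89) in the chelator pool and 3.60 (3.35 to 3.86) in the control pool. It was 2.96 and 2.81 without the cells that held both Pf4 and Gata1, and 3.05 in the chelator pool when cells were ranked by raw CD41 UMIs.

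Itgb3 had a wider span along CD61, at 2.05, 3.41, 15.3, 54.9 and 82.7 CPM in the chelator pool. The control series was 2.51, 5.45, 13.0, 53.1 and 79.1 CPM. The log2 ratios were 5.34 (4.81 to 5.91) and 4.98 (4.49 to 5.51), and 4.36 and 4.35 in Xist cells alone. Itgb3 thus stood near its MPP4-gate level in the lower quintiles and close to its HSC-gate level in the highest.

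Inside the HSC gate the chains parted. Itga2b still climbed with CD41, at 26.9, 38.7, 63.0, 89.0 and 204 CPM in the chelator pool and 23.5, 42.5, 47.2, 81.0 and 192 CPM in the control pool. The log2 ratios were 2.93 (2.61 to 3.26) and 3.03 (2.67 to 3.41). Itgb3 moved less with CD61, at 61.1, 61.2, 68.6, 84.8 and 98.9 CPM in the chelator pool and 68.6, 68.3, 67.4, 88.8 and 90.8 CPM in the control pool. Its log2 ratios were 0.69 (0.46 to 0.93) and 0.40 (0.15 to 0.65). In other gates its ratios were larger, over 5 to 11 Itgb3 UMIs in the bottom quintile. MPP1 had 3.20 (2.04 to 4.59) and 2.08 (1.06 to 3.21). MPP4 had 2.04 (1.02 to 3.20) and 2.44 (1.40 to 3.66). MPP3 had 1.46 (0.09 to 3.06) and 1.78 (0.74 to 2.96), and in the chelator pool that interval overlapped the HSC gate's. The rise was not always steady: the control MPP3 gate held 5.29, 1.04, 10.0, 4.00 and 18.2 CPM. CD135+CD150+ cells had 2.87 and 2.62. The CD61 tag itself spanned less than CD41 over the HSC-gate quintiles, from 102 to 350 per 10000 against 66.6 to 376 in the chelator pool.

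**Figure D2:**
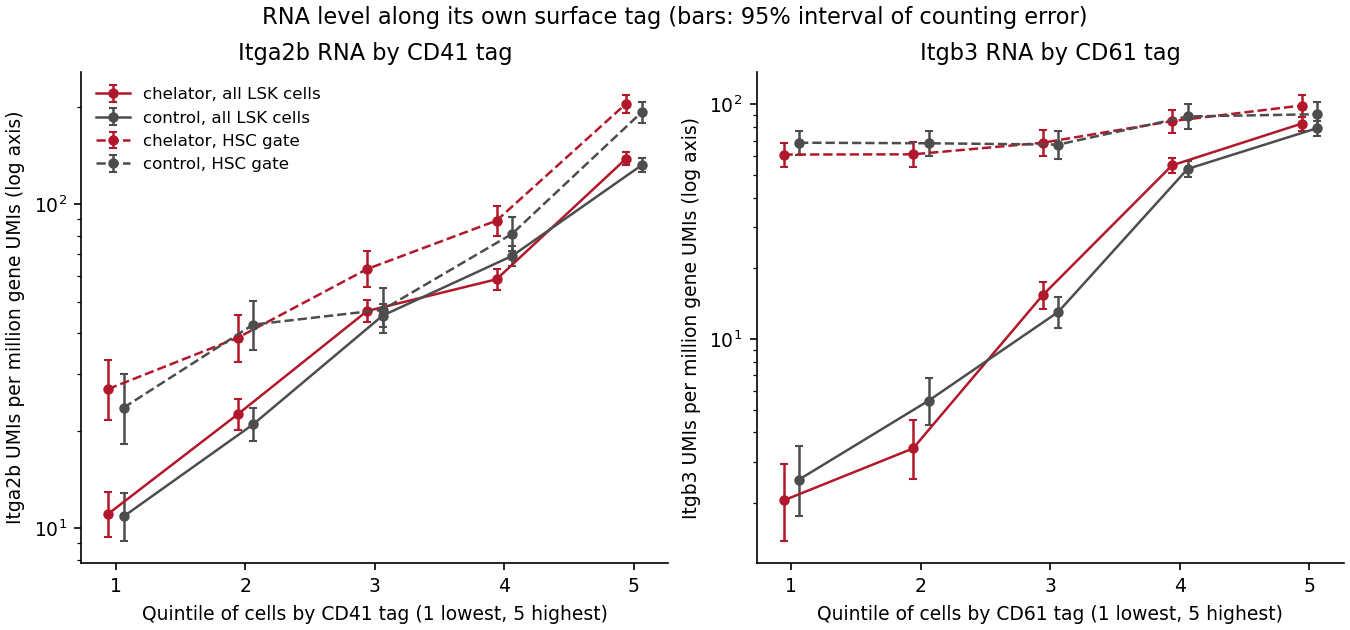
Itga2b CPM by quintile of the CD41 tag (left) and Itgb3 CPM by quintile of the CD61 tag (right), on log axes, over all LSK cells (solid) and in the HSC gate (dashed), with 95% intervals of counting error. Within the HSC gate Itga2b still climbs to 204 and 192 CPM in the top CD41 quintile of the chelator and control pools, whereas Itgb3 stays between 61.1 and 98.9 CPM.

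Cell by cell the same contrast appeared. Pearson's r of Itga2b RNA with the CD41 tag was 0.35 in 3998 chelator cells and 0.35 in 3969 control cells, and 0.37 and 0.36 within the HSC gate. For Itgb3 and CD61 it was 0.49 and 0.44 over all cells, but 0.15 and 0.12 within the HSC gate. These correlations describe cells that share a library and its depth.

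CD41 was on the surface of HSC-gate cells in which no Itga2b UMI was seen. Chelator cells of that gate with 0, 1, 2 and 3 or more Itga2b UMIs had medians of 62, 89, 101.5 and 144 CD41 UMIs, and control cells 48, 69.5, 72 and 101. MPP4-gate cells with no Itga2b UMI had a median of 6 CD41 UMIs in either pool. CD61 moved less with its RNA inside the HSC gate, with medians of 96.5, 108, 117 and 124 UMIs in the chelator pool and 78, 85, 92 and 96 in the control pool. Cells with more RNA UMIs were also deeper, and per 10000 surface-tag UMIs the CD61 medians of these cells were 216, 226, 232 and 211 in the chelator pool and 192, 204, 199 and 191 in the control pool.

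The CD41 and CD61 tags went together over all LSK cells, with a Pearson r of 0.79 in the chelator pool and 0.74 in the control pool. In the HSC gate r was 0.30 and 0.36. CD51, the other partner of CD61, behaved differently: CD61 with CD51 had an r of 0.82 and 0.79 over all cells and 0.76 and 0.75 within the HSC gate, while CD41 with CD51 had -0.15 and -0.09 within that gate. The RNAs of both chains had an r of 0.20 and 0.13 with each other over all cells.

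Partner integrin chains were read beside them. The CD51 tag stood at 104 and 107 per 10000 in the chelator and control HSC gates, against 34.0 and 37.2 in the MPP4 gates. Itgav RNA, which encodes CD51, stood at 17.4 and 18.8 CPM in the HSC gates, against 18.4 and 20.8 in the MPP4 gates, so the surface difference had no counterpart in its RNA. Itgb1, the beta chain of collagen and fibronectin receptors, stood at 126 and 124 CPM in the HSC gates, against 99.5 and 97.1 in the MPP4 gates. Itga5, a fibronectin receptor chain, stood at 31.1 and 32.5 CPM, against 14.1 and 13.4. Itga2, a collagen receptor chain, stood at 3.04 and 1.94 CPM, against 4.34 and 4.16.

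**Figure D3:**
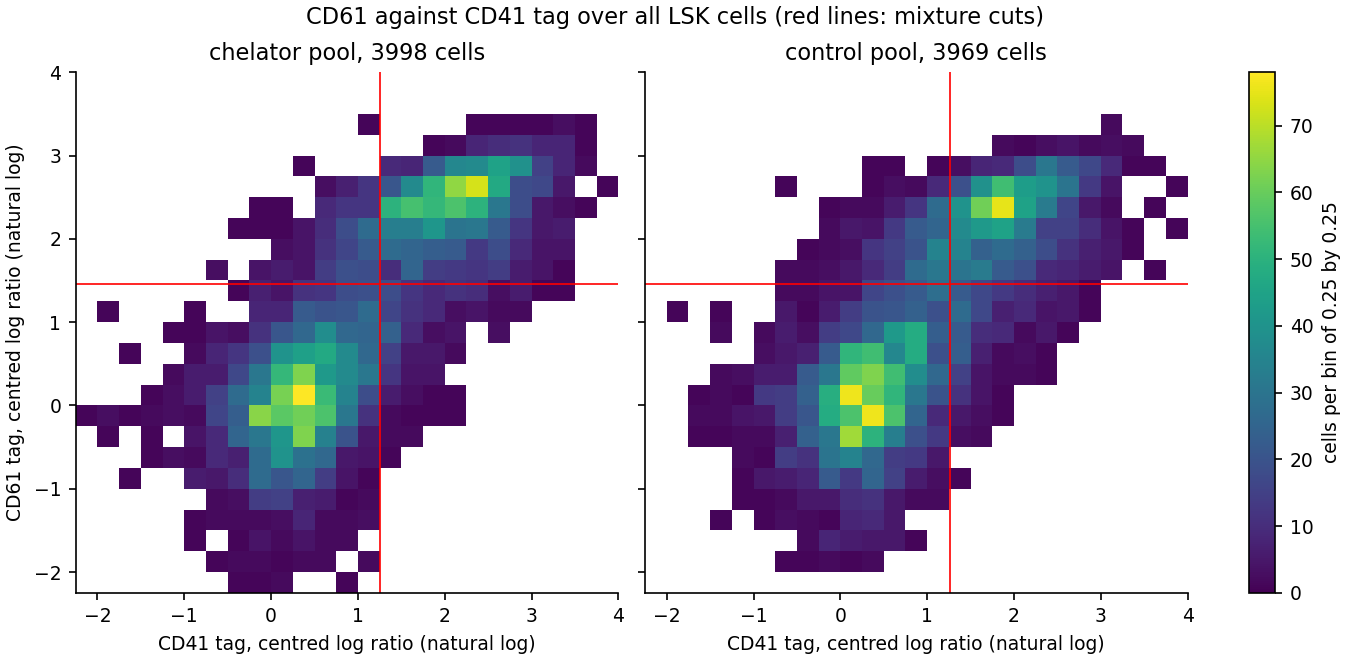
CD61 against CD41 tag as centred log ratios (natural log) over all LSK cells of the chelator pool (left) and control pool (right), coloured by cells per bin, with red lines at the limits that divide low from high. Most cells lie in a low cloud or a high cloud along the diagonal, and 35.2% of chelator and 29.0% of control cells are high for both tags.

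Limits from a 2-component mixture of each tag divided cells into 4 classes. Over all LSK cells, 35.2% of chelator cells (33.7 to 36.7) and 29.0% of control cells (27.6 to 30.4) were high for both tags. CD41 alone was high in 5.03% and 6.85%, and CD61 alone in 6.48% and 8.47%. In the HSC gate, 87.3% of chelator cells (85.3 to 89.0) and 78.9% of control cells (76.5 to 81.2) were high for both. CD41 alone was high in 3.74% (2.78 to 4.91) and 6.20% (4.88 to 7.74), and CD61 alone in 8.24% (6.81 to 9.86) and 12.3% (10.5 to 14.3).

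The single-high classes of the HSC gate carried different RNA. CD41-high, CD61-low cells (49 chelator and 72 control) held Pf4 at 1072 and 905 CPM. CD41-low, CD61-high cells (108 and 143) held it at 21.5 and 13.0 CPM. Procr, the stem cell marker EPCR, showed the reverse, at 6.69 and 21.4 CPM in the CD41-only class and at 268 and 292 CPM in the CD61-only class. Itga2b stood at 250 and 194 CPM in the CD41-only class, against 16.1 and 14.2 in the CD61-only class. Vwf, which encodes the platelet ligand von Willebrand factor, stood at 66.9 and 92.8 CPM in the CD41-only class, against 74.6 and 120 in the CD61-only class.

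Cells with at least 2 UMIs of Pf4 and 1 of Gata1 (Pf4+Gata1+ cells) made up 53.1% and 30.6% of the CD41-only class of the HSC gate. They made up 0% of the CD61-only class in either pool, that is, 0 of 108 and 0 of 143 cells. At a count of 0 the one-sided 95% upper limit is about 3 cells. Over all LSK there were 155 chelator and 149 control cells of this kind, and in them Itga2b stood at 318 and 335 CPM. Those in the HSC gate had 289 and 260 CD41 UMIs per 10000, against 192 and 146 in the rest of that gate. Their CD61 level was lower than in the rest of that gate, at 109 and 104 per 10000, against 231 and 200. Itgb3 RNA went the other way, at 88.2 and 102 CPM in these cells, against 71.6 and 72.4 in the rest.

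In the HSC gate the measured megakaryocyte and platelet genes mostly ran in opposite directions along CD41 and along CD61. The stem cell list was mixed along CD41 and mostly higher along CD61. Between the highest and lowest CD41 quintile there, 9 of 13 measured megakaryocyte and platelet genes were more than 2-fold higher in each pool. The list holds 18 genes, and a gene can reach the minimum of 50 UMIs for a comparison through 1 quintile alone. The counts therefore do not stand for the whole list. None of the 13 was more than 2-fold lower. Their median log2 ratio was 1.31 in the chelator pool and 1.50 in the control pool, against 0.00 and 0.03 over all genes. Of all genes, 1.53% in the chelator pool and 2.28% in the control pool were more than 2-fold higher, and 1.59% and 1.84% more than 2-fold lower. Median depth moved with this ranking, and its part was not tested: it was 15290 and 13968 gene UMIs in the top quintile and 11550 and 11746 in the bottom quintile.

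Pf4 was at 780 CPM in the top and 45.2 in the bottom CD41 quintile of the chelator pool, and at 717 and 17.6 in the control pool. Gp1bb, a chain of the platelet receptor for von Willebrand factor, had log2 ratios of 3.44 and 4.09, and Treml1, a platelet alpha-granule receptor, 2.56 and 2.57. Gp5, of the same receptor as Gp1bb, had 1.69 and 2.13. Cd9, a tetraspanin of platelets and stem cells, had 0.62 and 0.69. Most of the measured list thus stood higher in CD41-rich cells.

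Of the stem cell list, 2 of 12 genes were more than 2-fold higher and 3 lower in the top CD41 quintile of the chelator pool, and 1 higher and 4 lower in the control pool. Clu, which encodes clusterin, was higher with log2 ratios of 2.24 and 1.29. Hlf, a stem cell transcription factor, was lower with -1.07 and -1.22, and Ly6a, which encodes Sca-1, with -1.18 and -1.17. The list's medians were -0.26 and -0.44. Vwf, which stands in this list as a marker of platelet-biased stem cells, had 1.30 and 0.54.

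Along CD61 in the HSC gate, the measured megakaryocyte and platelet genes mostly went the other way. Between the highest and lowest CD61 quintile there, 8 of 13 measured megakaryocyte and platelet genes were more than 2-fold lower in each pool. None of the 13 was more than 2-fold higher, and their medians were -1.10 and -1.38, against -0.11 and -0.09 over all genes. Here too 18 genes were listed, and a gene can be measured through 1 quintile alone. Of 12 stem cell genes, 9 in the chelator pool and 6 in the control pool were more than 2-fold higher. None of the 12 was more than 2-fold lower, and their medians were 1.34 and 1.06. Of all genes, 4.4% and 4.33% were more than 2-fold higher and 6.53% and 6.58% more than 2-fold lower. Depth ran the other way, with medians of 12370.5 and 11237 gene UMIs in the top and 16016 and 15526 in the bottom quintile.

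Pf4 stood at 17.3 CPM in the top CD61 quintile of the chelator pool, against 711 in the bottom quintile, and at 16.1 against 646 in the control pool. Gata1, a master regulator of megakaryocytes and erythroid cells, stood at 1.49 against 50.0 CPM and at 0.732 against 58.1 CPM. Itga2b itself had log2 ratios of -1.65 and -1.86 along CD61, while Itgb3 had 1.08 and 0.81 along CD41. Ly6a had 1.70 and 2.25 along CD61, Hlf 1.08 and 0.90 and Mllt3, a stem cell self-renewal factor, 1.36 and 0.98. Pf4+Gata1+ cells made up 22.8% and 21.5% of the bottom CD61 quintile and 0.382% and 0% of the top.

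Of 15 transcription factors of the megakaryocyte programme, Gata1 alone was more than 2-fold lower along CD61 in each pool. None was more than 2-fold higher. Over all genes the shares along CD61 were 6.53% and 6.58% lower and 4.4% and 4.33% higher, so 1 of 15 lay near its share. Along CD41, none of the 15 was more than 2-fold lower. More than 2-fold higher were 2 of 15 in each pool, against 1.53% and 2.28% of all genes. Gata1 was among these with log2 ratios of 1.21 and 2.52. Of the integrin activation and signalling list, none was more than 2-fold lower along CD41. More than 2-fold higher were 2 of 22 measured genes in the chelator pool and 2 of 23 in the control pool. Rap1b, the small GTPase that switches platelet integrins on, was among them with log2 ratios of 1.54 and 1.69. Along CD61, 4 of 23 in the chelator pool and 5 of 23 in the control pool were more than 2-fold lower. Rap1b was among these with -1.39 and -1.35, and 0 and 1 genes were more than 2-fold higher.

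Genes of other lineages also moved along the tags in the HSC gate, over few measured genes. A gene can reach the minimum of 50 UMIs through 1 quintile alone, so these genes do not stand for their lists. Of all genes, 4.4% and 4.33% were more than 2-fold higher along CD61 and 6.53% and 6.58% more than 2-fold lower. Along CD61, 3 of 5 erythroid genes were more than 2-fold lower in each pool and 1 was higher, with medians of -1.71 and -1.2. Granulocyte and monocyte genes went opposite ways in the pools, with 3 of 4 lower and 1 higher in the chelator pool (median -3.11) and 3 of 3 higher in the control pool (median 2.17). Mpo, the myeloperoxidase of granulocytes, had a log2 ratio of -3.76 in the chelator pool and 2.17 in the control pool.

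Along CD41, 3 of 4 lymphoid genes in the chelator pool and 1 of 2 in the control pool were more than 2-fold lower, with medians of -2.28 and -1.53. Of granulocyte and monocyte genes 3 of 4 and 1 of 2 were lower by that measure, with medians of -4.53 and -1.05. Of 4 erythroid genes 1 was more than 2-fold higher and 1 more than 2-fold lower in the chelator pool (median 0.37). In the control pool 1 was higher and 2 were lower by that measure (median -0.80). Of all genes, 1.53% and 2.28% were more than 2-fold higher along CD41 and 1.59% and 1.84% more than 2-fold lower. The few measured lymphoid and granulocyte genes stood lower in CD41-rich cells of both pools, but a gene can be measured through the quintile where it is high. No wider trend is read from them. Along CD61 the pools differed in direction for granulocyte genes.

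Some further genes are named after their values were seen. Mki67, the proliferation marker, stood at 5.67 CPM in the top and 316 CPM in the bottom CD61 quintile of the chelator HSC gate, and at 3.66 and 358 in the control HSC gate. Along CD41 it stood at 132 and 87.7 CPM in the top and bottom quintiles of the chelator pool, and at 194 and 103 in those of the control pool. Sult1a1 and Procr, stem cell markers, had log2 ratios of 2.77 and 2.48 along CD61 in the chelator pool, and of 2.80 and 1.94 in the control pool.

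**Figure D4:**
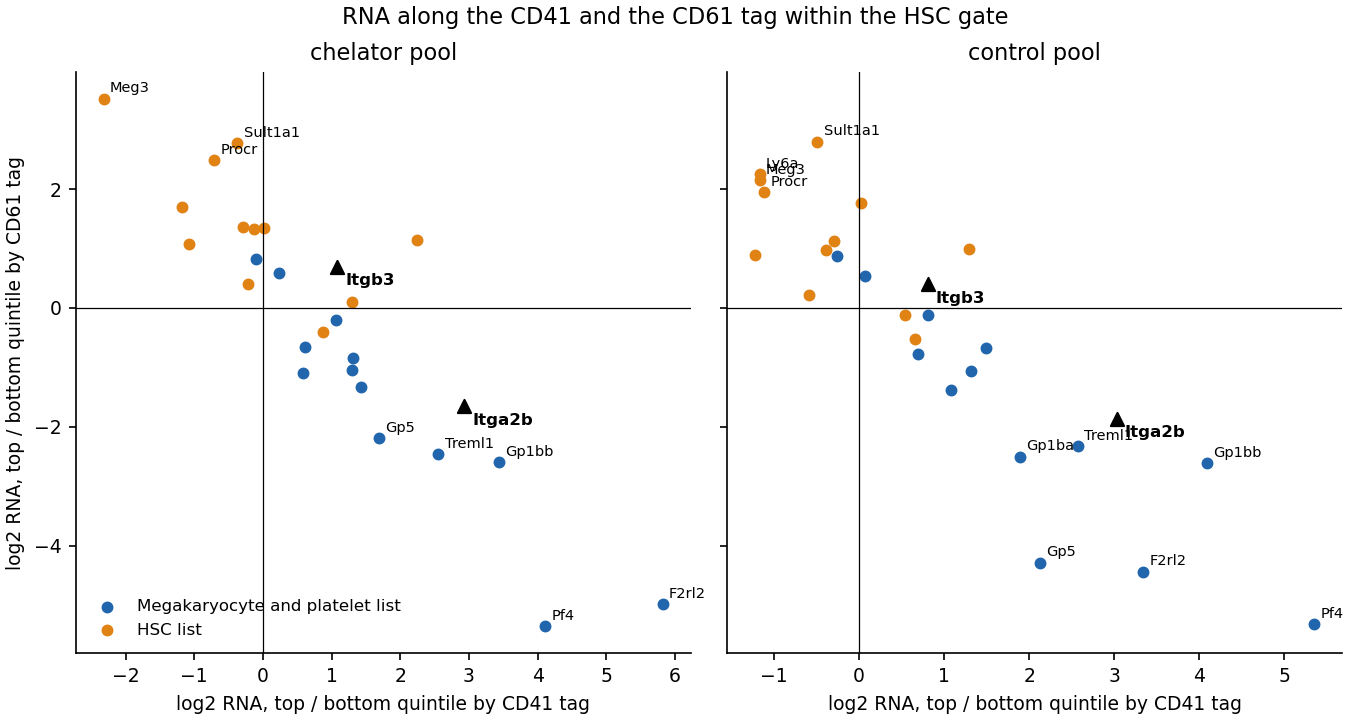
Each point is a gene of the megakaryocyte and platelet list (blue) or the stem cell list (orange), with its log2 ratio of CPM in the highest over the lowest quintile of the CD41 tag (x axis) and of the CD61 tag (y axis) in the HSC gate, chelator pool left and control pool right. Itga2b (black triangle) lies with Pf4 at the lower right, at 2.93 and -1.65 in the chelator pool, while Itgb3 lies at the upper right, at 1.08 and 0.69.

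The genes most like each RNA across all LSK cells were also different sets. By the mean over both pools of Pearson's r, among 9839 genes with at least 1000 UMIs, Itga2b was followed most closely by Mfsd2b (a sphingosine-1-phosphate exporter of red cells and platelets), Tuba8, Gata1, Pf4, Gp5, Gp1bb and Treml1, at 0.46 to 0.35. Itgb3 was followed by Cavin2 (a coat protein of caveolae), Clu, Vwf, Trim47, Gda, Apoe, Pdzk1ip1 and Tgm2, at 0.46 to 0.39. Itgb3 came at rank 102 for Itga2b, counting Itga2b itself, with a mean r of 0.16. For the CD41 tag the nearest tags were CD61, CD150, CD55, CD9, CD51 and CD49f, at 0.77 to 0.59. For CD61 they were CD51, CD41, CD150, CD55, CD49f and CD9, at 0.81 to 0.59.

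The study set lasting iron chelation beside vehicle, and the members were compared between its pools. Over all LSK cells the RNA was alike in the pools: Itga2b stood at 53.7 CPM in chelator and 54.4 in control cells, a log2 ratio of -0.02 (-0.09 to 0.05). Itgb3 stood at 27.9 and 27.0 CPM, a log2 ratio of 0.04 (-0.05 to 0.14). The tags were higher in the chelator pool. CD41 stood at 117 and 91.9 per 10000, a log2 ratio of 0.35 (0.34 to 0.36), and CD61 at 130 and 110, a log2 ratio of 0.25 (0.24 to 0.25). The pools also differed in gate make-up, with 1311 of 3998 chelator and 1162 of 3969 control cells in the HSC gate. The part of gate make-up was not tested. CD61 was higher in the HSC, MPP2 and CD135+CD150+ gates (0.20, 0.11 and 0.55). It was lower in the MPP1, MPP3 and MPP4 gates (-0.03, -0.11 and -0.05).

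CD41 was 1 of 2 surface tags of 117 higher in the chelator pool by a ratio over 5 to 4, and CD61 had rank 3 without passing that size. Of all tags, 1.71% were higher and 5.98% lower by more than that ratio, and of all genes 4.22% and 4.06%. The direction of both tags differed with the scale. Divided by hashtag UMIs instead, the log2 ratio of CD41 was -0.45 and that of CD61 -0.55, but each pool had its own hashtag antibody, with medians of 4496 UMIs in chelator and 2426 in control cells. Isotype controls had log2 ratios of -0.09 to 0.09, except MOPC.21 with 0.38.

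In the HSC gate CD41 stood at 199 per 10000 in the chelator pool and 154 in the control pool, a log2 ratio of 0.37 (0.36 to 0.39). Cells with Y-linked transcripts had 213 and 155 (0.46, 0.44 to 0.48), and cells with Xist had 164 and 162 (0.01, -0.01 to 0.04). CD61 stood at 223 and 193 (0.20, 0.19 to 0.22), with 0.25 in cells with Y-linked transcripts and 0.07 in cells with Xist. In this gate 2.56% of tags were higher by over 5 to 4, CD41 among them at rank 2, and 3.42% lower. The part of sex make-up in these ratios was not tested.

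Itga2b RNA in the HSC gate stood at 90.1 and 82.9 CPM, a log2 ratio of 0.12 (0.02 to 0.22). Cells with Y-linked transcripts had 98.9 and 83.0 CPM (0.25, 0.12 to 0.39), and cells with Xist had 75.3 and 94.6 CPM (-0.33, -0.53 to -0.13), so the direction differed with the sex transcripts. Without the Pf4+Gata1+ cells the gate held 59.9 and 47.5 CPM (0.33, 0.19 to 0.47). Itgb3 RNA stood at 73.3 and 75.5 CPM (-0.04, -0.15 to 0.07). Of all genes in this gate, 4.19% were higher by over 5 to 4 and 4.14% lower, and neither Itga2b nor Itgb3 was among them.

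In the MPP3 gate both RNAs were lower in the chelator pool. Itga2b stood at 44.1 CPM (532 UMIs) in chelator and 64.9 CPM (642 UMIs) in control cells, a log2 ratio of -0.56 (-0.73 to -0.39). It was lower in cells with Xist (-0.33, -0.64 to -0.02) and in cells with Y-linked transcripts (-0.72, -0.94 to -0.49). Itgb3 stood at 3.98 CPM (48 UMIs) and 7.78 CPM (77 UMIs), a log2 ratio of -0.97 (-1.52 to -0.43). In the Dntt cells Itgb3 stood at 2.07 and 2.19 CPM. Itgb3 had -1.42 (-2.21 to -0.65) in cells with Y-linked transcripts and -0.39 (-1.39 to 0.55) in cells with Xist, so in the Xist cells its interval held 0.

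The CD41 tag in the MPP3 gate had -0.16 (-0.21 to -0.11) and CD61 -0.11 (-0.17 to -0.06). In cells with Y-linked transcripts CD41 had -0.29 and CD61 -0.15. In cells with Xist CD41 had 0.03 (-0.05 to 0.12) and CD61 31.3 and 31.4 per 10000, and both intervals held 0.

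The 9 mast cell and basophil markers summed to 123 CPM in the chelator and 328 CPM in the control MPP3 gate. Of these, 7 of 9 had UMIs in either pool, with Tpsb2 and Prss34 at 0 in the chelator gate and Cma1 and Tpsb2 at 0 in the control gate. Cells with at least 3 UMIs of that list made up 106 of 614 chelator and 113 of 503 control cells, and in them Itga2b stood at 77.0 and 111 CPM. In the other MPP3 cells it stood at 34.8 and 47.9 CPM, a log2 ratio of -0.46 (-0.69 to -0.24). Itgb3 stood at 7.88 and 6.83 CPM in the mast and basophil marker cells (0.21, with an interval that held 0), against 2.87 and 8.12 CPM in the others (-1.50, -2.22 to -0.82). CD41 had 0.06 (-0.04 to 0.15) in the marker cells and -0.22 (-0.27 to -0.16) in the others. Pf4 stood at 13.1 and 32.1 CPM in the whole MPP3 gate (-1.30, -1.58 to -1.02), and Flt3 had a log2 ratio of 0.37 (0.26 to 0.49). The 6 B cell markers, all with UMIs, summed to 163.5 and 574 CPM in the same gate, and their part was not tested.

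The other gates held smaller or mixed differences. In the MPP2 gate CD41 stood at 118 and 143 per 10000 (-0.28, -0.33 to -0.22), and Itga2b RNA at 159 and 181 CPM (-0.19, -0.40 to 0.02). CD41 there had -0.44 in cells with Xist and 0.10 (-0.01 to 0.20) in cells with Y-linked transcripts. It had -0.61 in Pf4+Gata1+ cells and -0.09 in the others, where Itga2b had -0.02 (-0.29 to 0.26) and -0.59 (-0.93 to -0.25). CD61 had -0.95 (-1.11 to -0.80) over 569 and 910 UMIs in the Pf4+Gata1+ cells and 0.40 (0.33 to 0.48) in the others. The direction thus differed within this gate of 101 and 92 cells, of which the Pf4+Gata1+ cells were only a part. These intervals do not cover the spread between single cells. In CD135+CD150+ cells CD41 stood at 147 and 112 (0.39, 0.34 to 0.44) and CD61 at 179 and 122 (0.55, 0.50 to 0.60), while Itga2b RNA had -0.33 (-0.62 to -0.05). In the MPP4 gate CD41 stood at 32.3 and 32.8 (-0.02, -0.06 to 0.02) and Itga2b at 19.3 and 20.2 CPM (-0.06, -0.25 to 0.12).

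**Figure D5:**
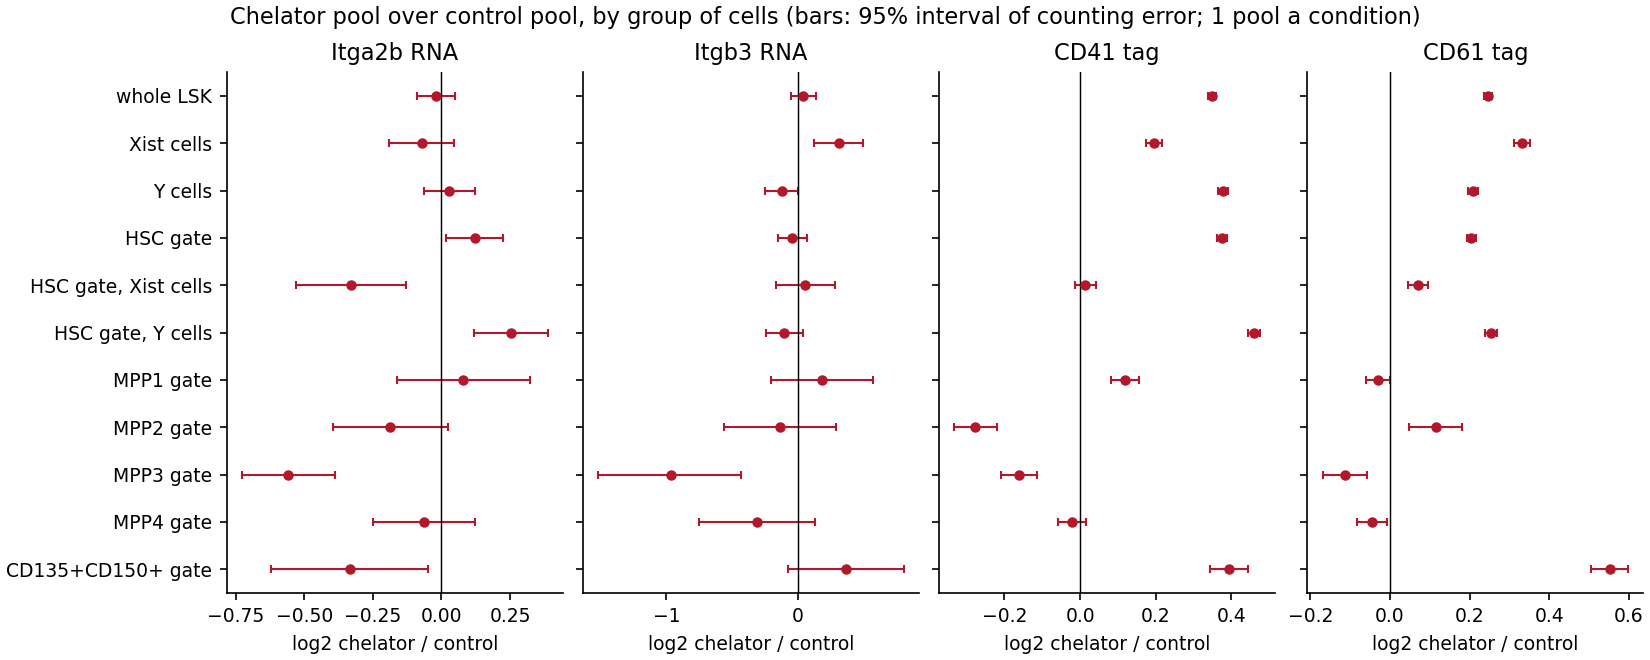
Log2 ratio, chelator over control, of each member in all LSK cells, by sex transcripts and by gate, with 95% intervals of counting error and 1 pool per condition (each panel has its own x scale). The HSC-gate CD41 tag lies at 0.46 in cells with Y-linked transcripts and 0.01 in cells with Xist, and both RNAs lie below 0 in the MPP3 gate, at -0.56 and -0.97.

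Genes around the receptor were also compared between the pools over all LSK cells. Of all genes, 4.22% were higher and 4.06% lower by a ratio over 5 to 4, so low counts in short lists lie near those shares. None of 24 measured genes of integrin activation and signalling passed that ratio either way, and their median log2 ratio was -0.02. Fermt3, which encodes the kindlin that activates platelet integrins, stood at 235 CPM in both pools, and Tln1, which encodes talin, at 231 and 230. None of 17 megakaryocyte and platelet genes passed it either, with a median of 0.07, nor did any of 15 transcription factors of the megakaryocyte programme, with a median of -0.03. Of 8 measured ligand genes, 1 was higher, Spp1, which encodes osteopontin, at 3.94 and 2.91 CPM, named after its value was seen. The median over all genes was -0.00. Outside the receptor's lists, 7 of 9 erythroid and 6 of 7 mast cell and basophil genes were lower by that ratio, with medians of -0.67 and -0.69.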

How the data were processed

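The authors deposited 1 matrix per condition, per the file headers written by Cell Ranger 7.0.1, that holds raw UMI counts, not normalized, for genes and antibody tags. The submitters' processing notes also name Seurat 4.3.0, the build mm10 and Cell Ranger as 7.0.0. Neither barcode filters nor hashtag assignment is given in the sources used here. Libraries were made with a 10x 5' kit, per the labels' protocols. The members, gene lists and tests were chosen with earlier results of these data known.

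Barcodes under 500 genes or with 10% or more mitochondrial UMIs were dropped, which removed 39 chelator and 57 control barcodes. RNA counts were summed per 1000000 gene UMIs, and tag counts per 10000 UMIs of 117 surface tags, of which CD49f made up 28.0% and 26.9%. Gates used centred log ratios (natural log of count plus 1) with limits from a 2-component Gaussian mixture over both pools (scikit-learn 1.9.0). Sums carry exact Poisson intervals, shares Clopper-Pearson intervals and ratios exact conditional binomial intervals (95%), checked on simulated data. Xist cells had at least 2 Xist UMIs and no Y-linked UMI. Y cells had at least 1 UMI over 4 Y-linked genes and no Xist. No doublet caller was used. Cells with at least 2 UMIs of each kind were left out in an alternative. Genes entered comparisons from 50 UMIs. PCR duplicates were removed by UMI upstream, and intervals cover counting error only. Genes named were the members, the 8 genes and 6 tags most correlated with them, partner integrins and up to 4 members of each list with the most UMIs. Others named in the text were added after their values were seen. Promoter sequence came from RefSeq. Some genes that this rule names are not reported here.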

Additional observations from a re-analysis of the deposited data

Results flagged for a closer look

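Several log2 ratios, chelator over control, ran in opposite directions in groups of cells, with both intervals leaving out 0 and both sizes at least 0.1. These differences were not tested, since each condition was 1 pool. In the HSC gate, Itga2b RNA had 0.25 in cells with Y-linked transcripts and -0.33 in cells with Xist. In the MPP2 gate, the CD61 tag had 0.12 in cells with Y-linked transcripts and -0.23 in cells with Xist. The same tag in that gate had -0.95 in cells with Pf4 and Gata1 and 0.40 in the others.

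Between gates, Itga2b RNA had 0.12 in the HSC gate, against -0.56 in the MPP3 gate and -0.33 in CD135+CD150+ cells. The CD41 tag had 0.37 in the HSC gate, against -0.28 in the MPP2 gate and -0.16 in the MPP3 gate. The CD61 tag had 0.20 in the HSC gate, against -0.11 in the MPP3 gate.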

How the results depend on the processing

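No paired analysis was possible because each condition was 1 pool and the libraries carry no replicate numbers. Of 218 values under 17 alternatives, 121 stayed within the interval of the value given above and 92 moved outside it, and 5 changed direction where that interval left out 0. Where it held 0, another 5 values took the other sign: Itga2b over all LSK had 0.029 in Y cells, 0.024 without Pf4+Gata1+ cells and 0.034 as the mean of cell shares, and Itgb3 had -0.12 over all LSK in Y cells and 0.059 in the HSC gate in Xist cells. All values here are log2 ratios. Tag intervals are narrow, so small shifts count as moved. The alternatives without CD49f and those in the MPP3 gate were added after seeing the data. The cause of each shift was not tested.

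The direction changed for Itga2b RNA in the HSC gate, chelator over control, to -0.33 in Xist cells alone, and for both tags when scaled to hashtag UMIs: CD41 -0.45 over all LSK and -0.53 in the HSC gate, CD61 -0.55 and -0.70. Other chelator over control values, in the order CD41 and CD61 over all LSK, then CD41 and CD61 in the HSC gate, were as follows. Tag UMIs per cell gave 0.51, 0.41, 0.52 and 0.35, the mean of cell shares 0.31, 0.22, 0.35 and 0.19, and scaling without CD49f 0.37, 0.27, 0.40 and 0.23. Xist cells alone gave 0.20, 0.33, 0.014 and 0.070, and Y cells alone 0.38, 0.21, 0.46 and 0.25. The stricter cell filter gave 0.33 for CD41 over all LSK. Without Pf4+Gata1+ cells CD41 and CD61 had 0.38 and 0.26 over all LSK, CD41 0.40 in the HSC gate and Itga2b 0.33 there. Gates fitted per pool gave 0.40 for CD41 and 0.22 for CD61 in the HSC gate. Itga2b there had 0.25 in Y cells alone. Itgb3 over all LSK had 0.31 in Xist cells and -0.12 in Y cells. In the MPP3 gate Itga2b had -0.33 and Itgb3 -0.39 in Xist cells.

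HSC over MPP4, in Xist cells alone the chelator pool had 1.56 for Itga2b, 4.10 for Itgb3, 2.29 for CD41 and 2.35 for CD61, and the control pool 3.64 for Itgb3, 2.27 for CD41 and 2.54 for CD61. In Y cells alone the chelator pool had 2.52 for Itga2b, 2.75 for CD41 and 3.04 for CD61, and the control pool 2.21 for Itga2b, 4.88 for Itgb3, 2.30 for CD41 and 2.65 for CD61. Without Pf4+Gata1+ cells Itga2b, CD41 and CD61 had 1.74, 2.59 and 2.93 in the chelator pool and 1.35, 2.18 and 2.67 in the control pool. Without cells near a gate limit they had 2.67, 2.84 and 3.08, and 2.51, 2.41 and 2.77. The mean of cell shares gave 1.68 for Itga2b and 2.91 for CD61 in the chelator pool, and 1.56 for Itga2b, 3.81 for Itgb3, 2.28 for CD41 and 2.69 for CD61 in the control pool. Without the 20 richest cells Itga2b and CD41 had 1.92 and 2.56 in the chelator pool, and 1.72 and 2.16 in the control pool. CD41 and CD61 had 2.87 and 3.11 (chelator) and 2.45 and 2.84 (control) without CD49f, and 2.55 and 2.73 (chelator) and 2.27 and 2.69 (control) with gates fitted per pool.

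Between the highest and lowest quintile of its own tag, Itga2b in the chelator and control pools had 3.16 and 3.97 in Xist cells, 2.96 and 2.81 without Pf4+Gata1+ cells, 3.14 and 3.17 as the mean of cell shares, 3.25 and 3.24 without the 20 richest cells, and 2.93 and 3.03 in the HSC gate alone. Ranked by share or by raw tag UMIs it had 3.38 and 3.05 in the chelator pool. Itgb3 had 4.36 and 4.35 in Xist cells, and 0.69 and 0.40 in the HSC gate alone.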
